A study of Rattus norvegicus with 12 samples.

Results

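Camk2a, Map2, Dlg4 and Map1b encode proteins of dendrites, the postsynaptic density and the microtubule skeleton of neurons, and their mRNAs were taken here as a set of 4 among the 25424 genes that could be read from the deposited table. They were chosen by their Ensembl rat identifiers (ENSRNOG00000018712, ENSRNOG00000011841, ENSRNOG00000018526 and ENSRNOG00000017428, in that order), as mRNAs known to be bound by FMRP and to be found in dendrites. The table lists identifiers without symbols, so the symbols come from the definition of the set. All 4 identifiers were present, and all 4 were among the 12150 genes that were tested, those whose FPKM averaged 1 or more over the libraries.

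FMRP, the RNA-binding protein lost in fragile X syndrome, binds many brain mRNAs along their coding sequence and holds back their translation. In dendrites, mRNAs are carried in granules in which translation is repressed, and synaptic activity can release them to ribosomes. Neither FMRP binding nor position in the cell was measured in these libraries.

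The cells were primary cortical neurons from embryonic Sprague-Dawley rats, grown for 28 days in vitro. They received 100 nM of a synthetic rat Aβ preparation that included oligomers, or an equal volume of HEPES buffer as vehicle, for 24 h. Cytosolic lysate was sequenced either as it was (total RNA) or after pelleting through a sucrose cushion (ribosome-enriched RNA). This gave 4 groups of 3 libraries, which were vehicle ribosome (2, 6 and 10), vehicle total (4, 8 and 12), Aβ ribosome (1, 5 and 9) and Aβ total (3, 7 and 11), named here by the numbers in their sample titles. Cultures of all 4 groups had the NMDA receptor blocker APV in their medium from early in culture and cycloheximide, which holds ribosomes on their mRNA, before lysis. The study's text speaks of biological replicates and describes total and ribosome-enriched RNA as a paired design. However, no label says which libraries came from which culture. The main tests and the permutations therefore treated the libraries of the fractions as unpaired, and their p-values leave out the pairing that the study states. The p-values measure the spread between these libraries, which may be in part technical. The study compared the fractions within each treatment to ask which mRNAs change their association with ribosomes after Aβ.

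Depth was between 14.1 M and 20.04 M mapped fragments per library. The vehicle ribosome library 2 was the shallowest and listed the fewest genes above 0, 15079 against 15566 to 17076 in the other libraries. The 20 most abundant genes held 8.87 to 9.61% of the listed fragments in total RNA and 19.5 to 28.7% after pelleting. Levels are therefore given as scaled FPKM, which are FPKM (fragments normalised to transcript length and sequencing depth) divided by a size factor that sets the median gene equal between libraries. A ribosome level below the total level thus means a lower ratio of ribosome to total RNA than that of the median gene, and it is not the share of molecules on ribosomes. Neuronal and glial marker genes could not be looked up without symbols, so the make-up of the cultures was not checked. In RNA from whole cultures, fewer cells of a type and less RNA per cell cannot be told apart.

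Counting error was at most 2.25% of a value for all 4 mRNAs. The fewest fragments were the 1982 of Map2 in vehicle ribosome library 2, and the most were the 40492 of Map1b in Aβ total library 11. Map1b gave the most fragments in every library although its FPKM was the lowest of the 4 in total RNA, because FPKM divides by transcript length. The lengths recovered from the values were 1458 bases for Camk2a, 3066 for Dlg4, 4433 for Map2 and 11866 for Map1b, against a median of 1982 bases over the tested genes. Levels between the 4 mRNAs therefore depend on these lengths, and Camk2a mRNA is known for a long 3′ UTR that a model of this length may leave out.

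Camk2a encodes the alpha subunit of calcium/calmodulin-dependent kinase II, the kinase needed for long-term potentiation, and its mRNA is one of the best known dendritic mRNAs. In total RNA its scaled FPKM was 422, 411 and 473 in vehicle libraries 4, 8 and 12, and 415, 403 and 432 in Aβ libraries 3, 7 and 11. In the ribosome fraction it was 138, 189 and 198 in vehicle libraries 2, 6 and 10, and 186, 171 and 239 in Aβ libraries 1, 5 and 9. The fractions did not overlap, since the highest ribosome library reached 0.592 of the lowest total library. Among all genes of a library, Camk2a ranked 91 to 113 in total RNA and 339 to 738 in the ribosome fraction.

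Map2 encodes microtubule-associated protein 2, which stabilises dendritic microtubules. Its scaled FPKM in total RNA was 198, 208 and 231 with vehicle and 201.4, 210 and 229 with Aβ. In the ribosome fraction the vehicle libraries 2, 6 and 10 had 35.8, 90.7 and 121, and the Aβ libraries 1, 5 and 9 had 101, 81.4 and 130. Library 2 lay far below the other 5 ribosome libraries, yet the highest ribosome library still reached only 0.659 of the lowest total library.

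Dlg4 encodes PSD-95, the scaffold of the postsynaptic density that anchors glutamate receptors. In total RNA it stood at 227, 212 and 273 scaled FPKM with vehicle and at 226, 221 and 291 with Aβ. Ribosome libraries held 189, 167 and 159 with vehicle and 166, 152 and 165 with Aβ. The gap between fractions was narrow, with the highest ribosome library, vehicle library 2, at 0.891 of the lowest total library.

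Map1b encodes microtubule-associated protein 1B, which acts in growing axons and in dendrites and whose mRNA is a classic target of FMRP. The total libraries held 140, 140 and 173 scaled FPKM with vehicle and 142, 142 and 168 with Aβ. In the ribosome fraction the values were 90.9, 120 and 92.5 with vehicle and 100, 98.5 and 101 with Aβ. The Aβ ribosome libraries were the closest to each other of any group, and the highest ribosome library, vehicle library 6, was at 0.859 of the lowest total library.

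**Figure D1:**
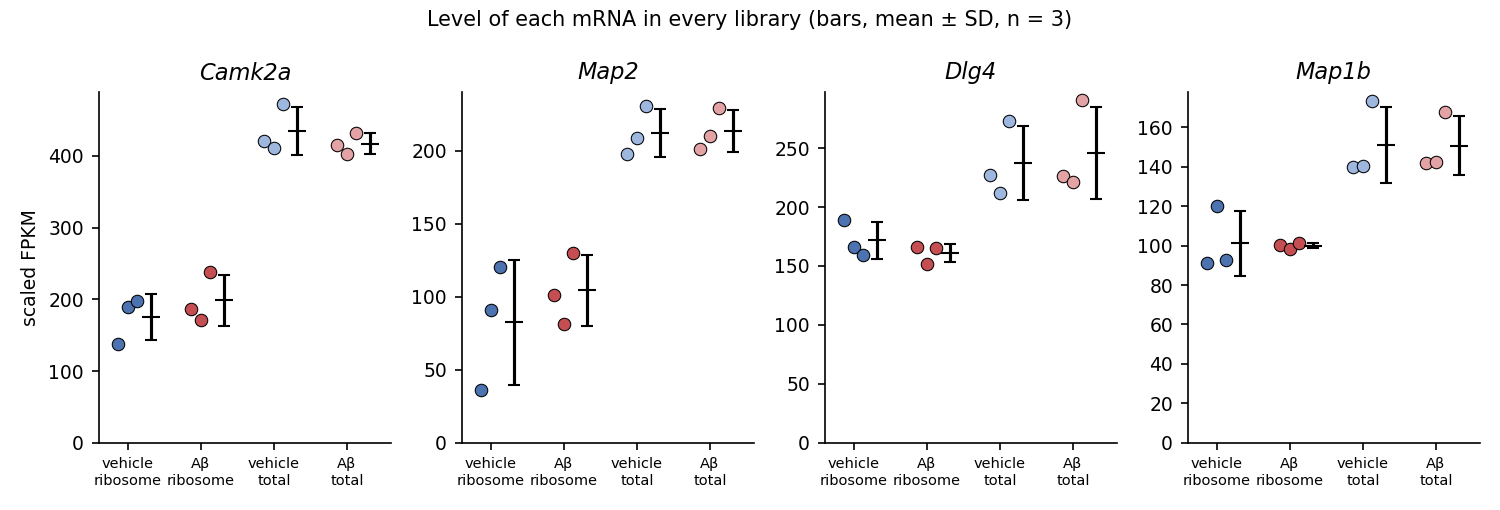
Scaled FPKM (vertical axis, from 0) of Camk2a, Map2, Dlg4 and Map1b in each library by group, with points for libraries and bars for the mean ± SD of 3 libraries. In each panel the 6 ribosome libraries lie below the 6 total libraries, and the lowest Map2 point is vehicle ribosome library 2 at 35.8.

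For all 4 mRNAs, then, each of the 6 ribosome libraries lay below each of the 6 total libraries. The same held for 20.6% of the 12150 genes tested, with 19.1% wholly above, and for 33.2% with FPKM as deposited, under which all 4 mRNAs again did so. With vehicle, the order of the mean levels differed between the fractions only for Map2 and Map1b, whose ribosome medians were 90.7 and 92.5 scaled FPKM. With Aβ the order of the means was the same in both fractions. In total RNA Camk2a was the highest (435 ± 33.1 scaled FPKM, SD, n = 3, with vehicle) and Map1b the lowest (151 ± 19.3), and neither overlapped its neighbour over the 6 libraries, while Dlg4 (237 ± 31.7) and Map2 (212 ± 16.8) overlapped. In the ribosome fraction Camk2a (175 ± 32.4) and Dlg4 (172 ± 15.4) overlapped at the top and Map1b (101 ± 16.3) and Map2 (82.4 ± 43.0) at the bottom, with no overlap between Dlg4 and Map1b. With Aβ the means were 417 ± 14.5, 246 ± 38.8, 214 ± 14.3 and 151 ± 14.9 in total RNA for Camk2a, Dlg4, Map2 and Map1b. The corresponding ribosome means were 199 ± 35.6, 161 ± 7.88, 104 ± 24.6 and 99.9 ± 1.32.

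The first comparison asked which of the mRNAs were less abundant in the ribosome fraction of vehicle cells. Camk2a was lower by 2.50-fold (log2 fold change -1.32, SE 0.18, adjusted p = 0.0030, limma with Benjamini-Hochberg adjustment over 12150 genes). Map2 was lower by 2.86-fold (-1.52, SE 0.40, limma adjusted p = 0.025), with the widest error of the 4. Map1b was lower by 1.49-fold (-0.58, SE 0.17, limma adjusted p = 0.033). Dlg4 did not pass the threshold of 0.05 (-0.46, SE 0.15, limma adjusted p = 0.054), and its 95% confidence interval ran from -0.82 to -0.10. Thus 3 of the 4 were called lower, against 16.4% of all genes tested, with another 15.9% called higher and 32.3% called in either direction. The median log2 fold change was -0.95 over the 4 and 0.00 over all genes.

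The vehicle calls other than that of Camk2a depended on which libraries were in the fit. Without ribosome library 2 the Map2 change was -1.01 in place of -1.52 and passed more clearly (limma adjusted p = 0.0043), and Dlg4 passed as well (-0.53, limma adjusted p = 0.027). Without ribosome library 6 Map2 missed the threshold (-1.67, limma adjusted p = 0.055). Leaving out a total library ended both the Map2 and the Map1b call. For Map2 the limma adjusted p was 0.066 without library 4, 0.073 without library 8 and 0.081 without library 12, and for Map1b it was 0.088, 0.085 and 0.13. The changes themselves were -1.57, -1.53 and -1.46 for Map2 and -0.63, -0.63 and -0.48 for Map1b, against -1.52 and -0.58 with all libraries. Calls over all genes fell as well, from 3925 to 1712, 1847 and 1867, so the lost calls are not particular to these mRNAs. Camk2a kept its call in all 6 fits with 1 library left out, from -1.42 to -1.16. No filter on low values also ended the calls of Map2 and Map1b (limma adjusted p = 0.092 and 0.064).

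With Aβ the same comparison was tighter. Camk2a was lower by 2.11-fold in the ribosome fraction (log2 fold change -1.08, SE 0.14, limma adjusted p = 0.0024) and Map2 by 2.07-fold (-1.05, SE 0.17, limma adjusted p = 0.0036). Dlg4 was lower by 1.51-fold (-0.60, SE 0.13, limma adjusted p = 0.011) and Map1b by 1.498-fold (-0.58, SE 0.10, limma adjusted p = 0.0049). All 4 were called lower, against 21.5% of all genes tested (19.6% were called higher, 41.1% in either direction), and each stayed called when any 1 of the 6 libraries was left out. The median over the 4 was -0.83, and that over all genes was 0.00.

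**Figure D2:**
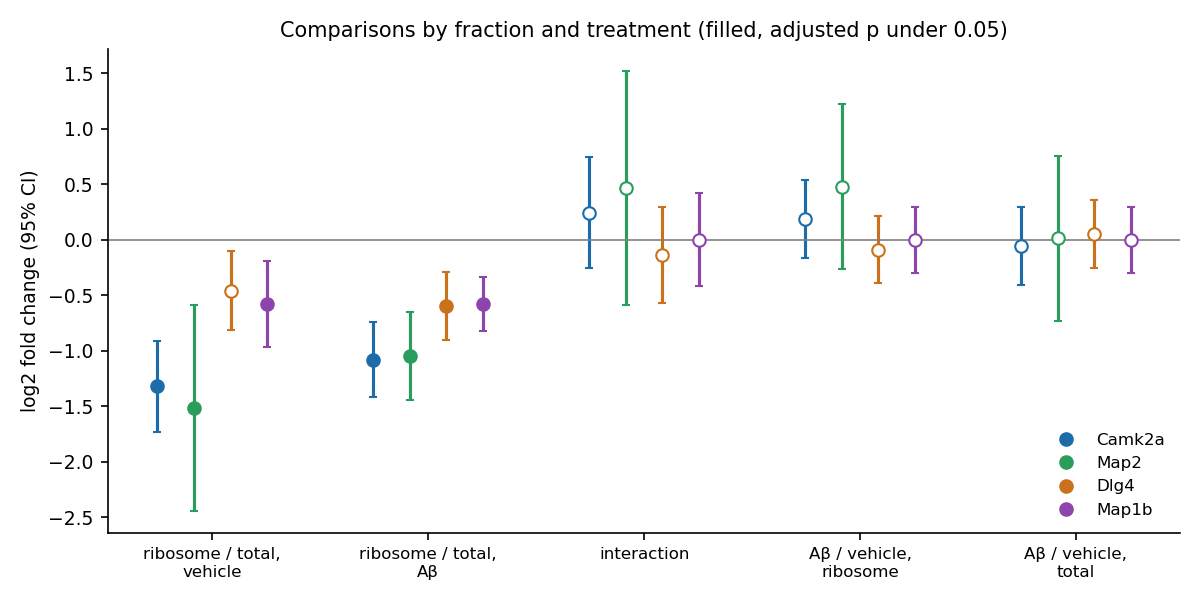
Log2 fold change (vertical axis) of the 4 mRNAs in 5 comparisons, with 95% confidence intervals from limma and filled symbols where the adjusted p was under 0.05. The fraction comparisons lie below 0 (Camk2a -1.32 with vehicle and -1.08 with Aβ), and the intervals of the interaction and of Aβ against vehicle all include 0.

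Against the whole transcriptome the 4 mRNAs fell into different places. With vehicle, 3.32% of the tested genes had a lower log2 fold change than Map2 and 5.03% a lower one than Camk2a, while 20.9% lay below Map1b and 25.3% below Dlg4. With Aβ the shares were 5.62% for Camk2a, 6.06% for Map2, 17.3% for Dlg4 and 17.9% for Map1b. Camk2a and Map2 were thus near the low end, and Dlg4 and Map1b were within the range of many other genes.

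**Figure D3:**
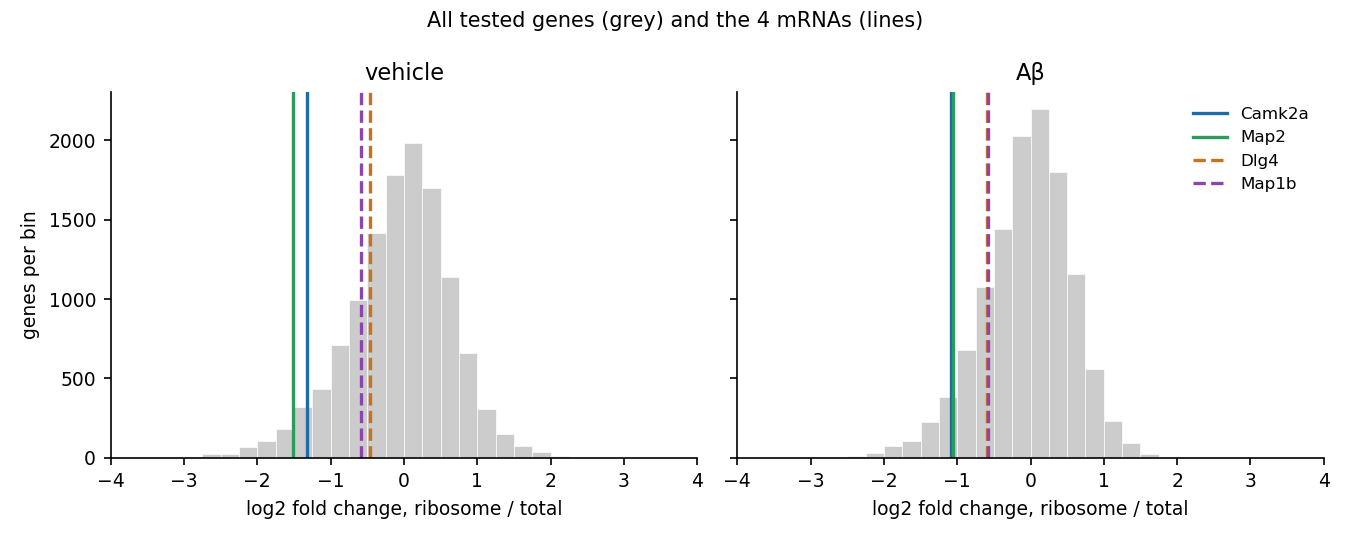
Number of tested genes (vertical axis) by log2 fold change of ribosome against total RNA (bins of 0.25, genes beyond 4 in the end bins) with vehicle (left) and Aβ (right), and lines at the 4 mRNAs. Camk2a and Map2 lie at -1.32 and -1.52 with vehicle, further down than Dlg4 at -0.46 and Map1b at -0.58.

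As a ratio of group means, the ribosome level of Camk2a was 40.3% of its total level with vehicle and 47.6% with Aβ, and that of Map2 38.8% and 48.8%. Dlg4 stood at 72.3% and 65.4%, and Map1b at 66.9% and 66.3%. Whether the 4 mRNAs differed from each other was tested with the ratio of 2 mRNAs inside each library, since such a ratio does not depend on scaling between libraries. The fraction labels were permuted within each treatment, and 0.005 is the smallest two-sided p that the 400 splits allow.

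Camk2a over Dlg4 was 1.11 in the ribosome libraries and 1.77 in the total libraries (geometric means of 6), a difference of -0.67 on the log2 scale (exact permutation p = 0.005, 0.0075 adjusted over 6 ratios). Camk2a over Map1b was 1.84 and 2.83 (-0.62), Map2 over Dlg4 0.522 and 0.886 (-0.76), and Map2 over Map1b 0.865 and 1.42 (-0.71), each with the same exact permutation p. For these 4 ratios no ribosome library reached the lowest total library, although for Map2 over Dlg4 the margin was small, with 0.7885 against 0.7895. Ratios without overlap were common here, since 61.2% of the 47932 ratios of these mRNAs to another tested gene had none. The 6 ratios are built from the same 4 mRNAs, so the 4 that differed are linked and are not separate results. Without vehicle ribosome library 2 the Map2 over Dlg4 difference was -0.47 in place of -0.76, and all 4 differences kept their sign when any 1 of the 12 libraries was left out.

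The other 2 ratios did not differ detectably. Camk2a over Map2 was 2.13 in the ribosome libraries and 2 in the total libraries (log2 difference 0.09, exact permutation p = 0.84). For Dlg4 over Map1b the values were 1.66 and 1.597 (0.05, exact permutation p = 0.61). In both cases the ribosome libraries overlapped the total libraries, and the highest ribosome value, 3.86 for Camk2a over Map2 and 2.08 for Dlg4 over Map1b, was that of vehicle ribosome library 2. The other 5 ribosome libraries ran from 1.64 to 2.10 and from 1.39 to 1.72. Within 1 treatment the 20 splits allow no p below 0.1, and each of the 4 differing ratios had the same sign with vehicle (-1.07 to -0.74) and with Aβ (-0.50 to -0.46).

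**Figure D4:**
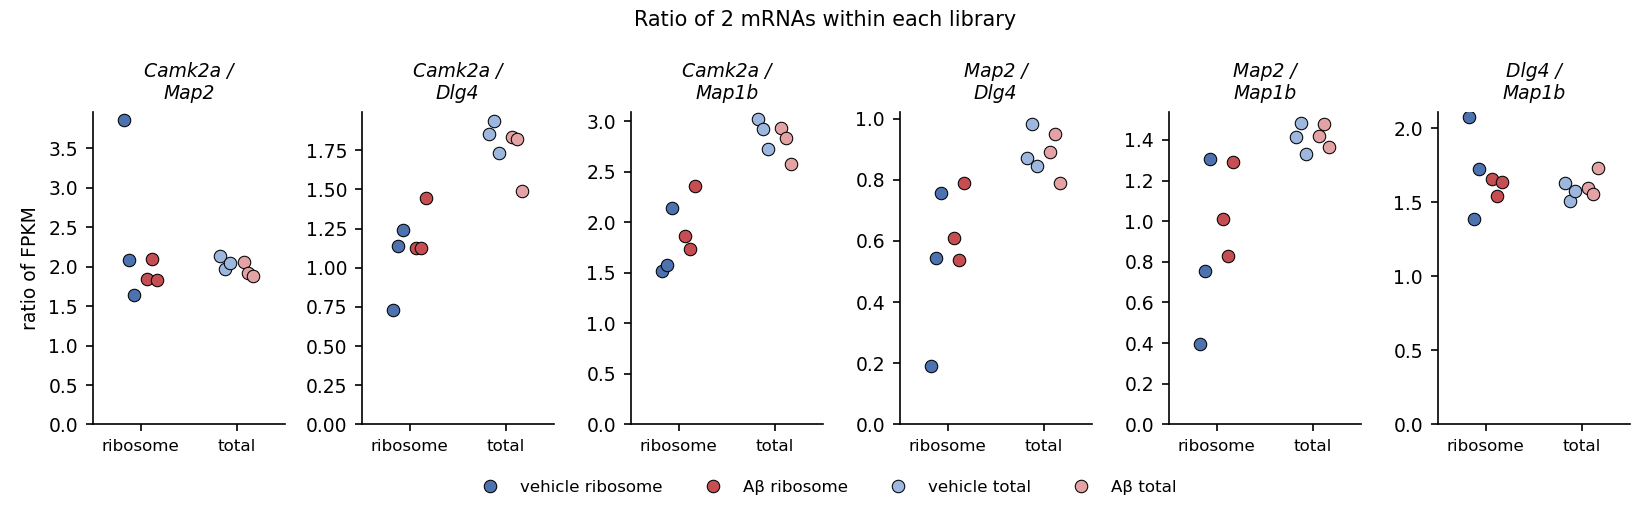
Ratio of the FPKM of 2 mRNAs (vertical axes, from 0) in each ribosome and total library, 1 panel per ratio, with vehicle libraries on the left and Aβ libraries on the right of each column. Camk2a and Map2 over Dlg4 or Map1b are lower in the ribosome libraries (1.11 against 1.77 for Camk2a over Dlg4), and the ratios inside each pair are not.

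Map1b is among the longest transcripts tested, with only 35 longer, and fold changes moved with length across genes. Spearman's rho of the log2 fold change with transcript length was -0.297 with vehicle and -0.254 with Aβ over 12148 genes, which are not independent replicates. The 70 genes longer than 10000 bases had a median of -0.65 with vehicle and -0.57 with Aβ, close to the -0.58 of Map1b in both. Once each library's trend with length was removed, Map1b was at 0.05 with vehicle (limma adjusted p = 0.84) and at -0.09 with Aβ (limma adjusted p = 0.57), so that neither call remained.

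The shorter transcripts kept their direction under this step. Camk2a was at -1.45 and -1.17 with vehicle and Aβ, and Map2 at -1.22 and -0.83, all 4 values with a limma adjusted p between 0.0020 and 0.037. For Camk2a the step used the recovered 1458 bases, which may leave out its long 3′ UTR. How a longer length would move its values and ratios was not tested. Dlg4 was at -0.31 with vehicle (limma adjusted p = 0.15) and at -0.48 with Aβ (limma adjusted p = 0.019). The 4 differing ratios also kept their sign, from -1.30 to -0.63 (exact permutation p = 0.005 to 0.015), and Dlg4 over Map1b then differed as well (-0.38, exact permutation p = 0.005). These ratios after removal of the trend were computed after the other values had been seen. What moved with length was not tested.

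**Figure D5:**
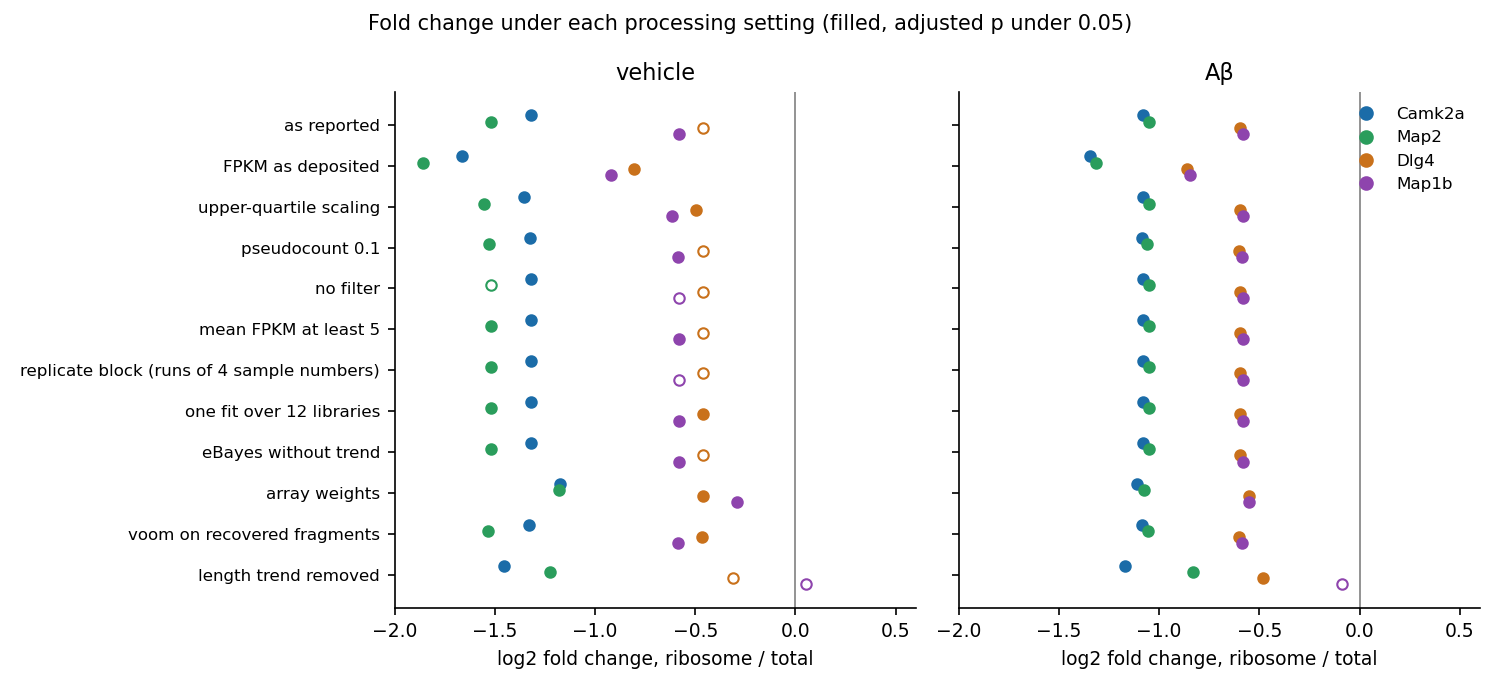
Log2 fold change of ribosome against total RNA (horizontal axis) with vehicle (left) and Aβ (right) under each processing setting (rows), filled where the adjusted p was under 0.05. Camk2a stays filled in all rows, and Map1b moves from -0.58 to 0.05 with vehicle and to -0.09 with Aβ when the length trend is removed.

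Size factors also set how large the changes appear. With FPKM as deposited, the median log2 fold change of all genes was -0.30 with vehicle and -0.23 with Aβ. The values of Camk2a, Map2, Dlg4 and Map1b were then -1.66, -1.86, -0.80 and -0.92 with vehicle and -1.35, -1.32, -0.86 and -0.85 with Aβ. All 8 passed the threshold (limma adjusted p from 0.00080 to 0.013).

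The next comparison asked whether Aβ changed the difference between the fractions. The interaction of treatment and fraction was 0.24 for Camk2a (95% CI -0.26 to 0.74), 0.47 for Map2 (-0.59 to 1.52), -0.14 for Dlg4 (-0.57 to 0.29) and -0.00 for Map1b (-0.42 to 0.42). limma called 0 of the 4 and 0.0% of all genes, and 84 genes (0.691%) had an unadjusted p under 0.05. The intervals leave room for changes in either direction, of up to 1.52 on the log2 scale for Map2. The Map2 value and the upper end of its interval rested on vehicle ribosome library 2, without which the value was -0.04 (95% CI -0.59 to 0.51). Dlg4, called with Aβ and not with vehicle, therefore shows no detectable difference between the treatments.

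Set directly against vehicle, the Aβ ribosome libraries overlapped the vehicle ribosome libraries for each mRNA. The log2 fold change was 0.18 for Camk2a (95% CI -0.17 to 0.53), 0.48 for Map2 (-0.27 to 1.22), -0.09 for Dlg4 (-0.39 to 0.22) and -0.01 for Map1b (-0.30 to 0.29). limma called 0 of the 4 and 0.0% of all genes, with 178 genes (1.47%) at an unadjusted p under 0.05. Without vehicle ribosome library 2 the Map2 value was -0.03 and the Camk2a value 0.02.

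In total RNA the treatments were closer still. Camk2a differed by -0.06 (95% CI -0.41 to 0.29), Map2 by 0.01 (-0.73 to 0.75), Dlg4 by 0.05 (-0.26 to 0.35) and Map1b by -0.00 (-0.30 to 0.29). The 12 libraries shared 1 estimate of spread per gene, so these intervals also hold the spread of the ribosome libraries. On the log2 scale the SD of Map2 was 0.11 (vehicle) and 0.095 (Aβ) in total RNA, against 0.90 in the vehicle ribosome libraries. With array weights the Map2 interval in total RNA was -0.21 to 0.29. Again limma called 0 of the 4 and 0.0% of all genes, and 20 genes (0.165%) had an unadjusted p under 0.05. Like the shares for the interaction and the ribosome fraction, this is far under the 0.05 expected if no gene changed. The absence of calls is therefore weak evidence of no Aβ effect. Libraries with neighbouring sample numbers deviated together within a fraction (r = 0.406 to 0.699), which the fit left in its error. A block of runs within each fraction, added after seeing the data, gave 102 genes at an unadjusted p under 0.05 in total RNA. The counts were 627 in the ribosome fraction and 309 for the interaction, with 0 genes called in each. No further test was made of the part of these shared deviations in the low shares. The mean levels of Map1b with vehicle and Aβ were 151 scaled FPKM in both, and those of Map2 were 212 and 214. Library 12 of the vehicle group and library 11 of the Aβ group had the highest total RNA level of their group for Camk2a, Map2, Dlg4 and Map1b.

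Across the 12 libraries, on log2(scaled FPKM + 1), the mRNAs followed each other, most closely Camk2a and Map2 (Pearson's r = 0.939) and least closely Map2 and Dlg4 (0.674). The 2 genes whose pattern was most like that of the 4 were ENSRNOG00000021904 and ENSRNOG00000029394, each with a mean Pearson's r of 0.936 over the 4. By Spearman's rho they ranked 137 and 88. ENSRNOG00000021904 ran from 4.09 to 6.25 scaled FPKM in ribosome-enriched RNA and from 10.4 to 14.4 in total RNA, and ENSRNOG00000029394 from 13.8 to 22.3 and from 37.7 to 49.5. All 12 libraries share the difference between the fractions, so these values describe the fraction pattern and carry no p.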

How the data were processed

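RNA sequencing covered 12 libraries, 3 in each of 4 groups. The authors made polyadenylated RNA libraries, with a higher efficiency bead capture for 3 unnamed samples that had lower RNA amounts. They aligned trimmed paired-end reads with TopHat (version 2.0.12) on a Bowtie index (2.2.3), counted fragments with HTSeq (0.6.1) in union mode and deposited FPKM per gene. Their own test was DESeq on counts, which were not used here. The genome build, annotation and strand setting are not given in the sources used here. Of 25425 rows, 1 was incomplete and left out.

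FPKM steps gave whole fragments (tolerance 0.003) for all 12150 tested genes, whole transcript lengths for 12148, and the depth of each library. Scaled FPKM are FPKM over median-of-ratios size factors. Genes whose FPKM averaged 1 or more entered limma 3.58.1 (R 4.3.3) on log2(scaled FPKM + 1), by lmFit and eBayes (trended), and p-values were adjusted over all tested genes after Benjamini and Hochberg (threshold 0.05). Fold changes on this scale understate changes of low genes. The fractions were compared within each treatment (6 libraries), and the interaction and Aβ comparisons used 1 fit of 12 libraries. Ratios used exact permutation tests. Python 3.11.15, numpy 2.4.6, pandas 2.3.3, scipy 1.17.1 and matplotlib 3.10.9 were also used, and the code was tested on simulated data. Counting errors cover counting only.

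The alternatives were the deposited FPKM unscaled, scaling on the upper quartile, 0.1 as pseudocount, dropping the filter or raising it to 5, leaving out each library, a replicate block, 1 fit over all groups, eBayes without trend, array weights, voom on recovered fragments and removal of the length trend. The block took runs of 4 consecutive sample numbers, an assumption. Libraries of 1 run deviated together within a fraction (r = 0.406 to 0.699 over 6 pairs) and not between fractions (-0.196 to 0.0681 over 12 pairs). A block of runs within each fraction, and the ratios without length trend, were added after seeing the data. The members, lists and tests were chosen with earlier results of these data known. The named genes are the 4 members and the 2 genes most correlated with them. Other pathway and marker lists could not be read, because 0 identifiers matched the RefSeq table.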

Additional observations from a re-analysis of the deposited data

Results flagged for a closer look

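Vehicle ribosome library 2 stood apart in 4 of 20 searched sets of 6 libraries (the ribosome or the total libraries of both treatments, for 4 levels and 6 ratios). A library was singled out where its gap to the nearest other library relative to the whole range on the log2 scale exceeded Dixon's 95% critical value for 6 libraries, and chance alone would give about 1 such set in 20.

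It was the lowest ribosome library for Map2, with a gap of 0.634 of the range (35.8 scaled FPKM against 81.4 to 130 in the other 5). Its Camk2a over Map2 ratio was the highest, with a gap of 0.714 (3.86 against 1.64 to 2.10). Camk2a over Dlg4 was lowest there, with a gap of 0.631 (0.732 against 1.12 to 1.44), as was Map2 over Dlg4, with a gap of 0.729 (0.190 against 0.536 to 0.7885). The 4 values share 1 library and 3 genes and are not independent of each other. Library 2 also had the lowest depth, 14.1 M fragments, and the lowest array weight, 0.129. The 3 samples with lower RNA amounts and the more efficient bead capture are not named. The part of either in these values was not tested.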

How the results depend on the processing

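In the vehicle comparison of the fractions, Dlg4 passed the threshold with FPKM as deposited (-0.80), upper-quartile scaling (-0.50), 1 fit over all 12 libraries (-0.46), array weights (-0.46) and voom (-0.46). Without a filter Map2 (-1.52) and Map1b (-0.58) missed it, leaving 1 of 4 called, and under the replicate block Map1b did (-0.58, limma adjusted p = 0.077), the cause of which was not tested. Removal of the length trend turned Map1b to 0.053 with vehicle and ended its call with Aβ (-0.086). Array weights called 8545 genes in vehicle, against 3925.

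With 1 library left out, the vehicle changes ranged from -1.42 to -1.16 (Camk2a), -1.87 to -1.01 (Map2), -0.54 to -0.36 (Dlg4) and -0.71 to -0.48 (Map1b), with 1 to 4 members and 1712 to 5253 genes called. With Aβ 3025 to 5816 genes were called. The lowest counts came without vehicle total library 4 and without Aβ total library 3, in fits of 5 libraries.

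Map1b lay near 0 between the treatments and changed sign with the setting. Its interaction was 0.074 with FPKM as deposited and 0.032 with upper-quartile scaling. Its Aβ effect was 0.063 and 0.023 in the ribosome fraction under the same settings, and in total RNA 0.028 with array weights and 0.031 without the length trend. With 1 library left out the interaction ranged from -0.041 to 0.82 (Map2) and -0.11 to 0.12 (Map1b). The Aβ effect ranged from -0.030 to 0.83 (Map2) and -0.075 to 0.12 (Map1b) in the ribosome fraction. In total RNA it ranged from -0.099 to 0.0025 (Camk2a), -0.041 to 0.072 (Map2), -0.078 to 0.15 (Dlg4) and -0.082 to 0.10 (Map1b). No filter gave 1 called gene for the interaction and 1 for total RNA, in place of 0.

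Camk2a over Map2 turned to -0.025 with Aβ alone, -0.017 with medians and -0.28 without the length trend, and ranged from -0.086 to 0.22 with 1 library left out. Dlg4 over Map1b turned to -0.014 with Aβ alone and -0.38 without the length trend, and ranged from -0.017 to 0.13. The other 4 ratios cannot reach 0.05 within 1 treatment (exact permutation p = 0.1). Camk2a over Dlg4 was -0.86 with vehicle and -0.48 with Aβ, Camk2a over Map1b -0.74 and -0.50, Map2 over Dlg4 -1.07 and -0.46, and Map2 over Map1b -0.95 and -0.47.

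The replicate block changed no other call of a member. Blocking the runs within each fraction, which was chosen after seeing the data, called 0 genes for the interaction (309 at an unadjusted p under 0.05) and for Aβ against vehicle in the ribosome fraction (627) and in total RNA (102). Counting error was at most 2.25% of a value, and no fit at matched depth was made.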

Other observations

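Taking the runs of 4 consecutive sample numbers as pairs, which is an assumption that the deviations between fractions (r = -0.196 to 0.0681 over 12 pairs) do not bear out, the ribosome level as a percentage of the total level ranged from 32.8 to 55.2% for Camk2a and from 18.1 to 56.8% for Map2 over 6 pairs. For Dlg4 it ranged from 56.9 to 83.1%, and for Map1b from 53.3 to 85.4%.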
